A study of Mus musculus with 8 samples.

Results

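Interferon-stimulated genes are described here in the mouse cochlea with and without the microRNA miR-29a. The 34 genes were taken by symbol from a fixed list, and all 34 were found among the 21895 genes of the expression table. The list was chosen with earlier results of these data known. All 34 had a mean of at least 0.5 FPKM (fragments scaled by transcript length and by the mapped total of the library), the level required for a test. The comparison asked whether their expression differed when miR-29a was absent. The study names 3 replicates per group for its RNA-seq, and which of the 4 it used is not known here. Bulk RNA of whole cochlea was sequenced in 8 libraries, 4 of WT mice (WT1 to WT4) and 4 of miR-29a-/- mice (KO1 to KO4). Both groups came from heterozygous breeding of a miR-29a-deficient strain on the C57BL/6 background, both sexes were used in the study, and the allele is missing in every cell type rather than in a chosen one. The series text gives an age of 21 days and the methods give 2 months, so the age of the animals is uncertain. The labels do not say that each library came from a separate animal, and p-values therefore measure only the spread between these libraries. The level of miR-29a was not analysed here, and the labels were therefore not checked against the gene that was deleted.

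Type I interferons bind a receptor made of IFNAR1 and IFNAR2, the kinases JAK1 and TYK2 then act on STAT2, which joins IRF9 in a complex that binds interferon-stimulated response elements in promoters. The genes switched on in this way sense foreign nucleic acid, block viral translation and assembly, or damp the response again. Most tissues hold a low level of these transcripts without infection, and resident immune cells carry more of them than many other cells do. The strain used here is known from work on the thymus, where miR-29a was reported to limit the receptor subunit IFNAR1. C57BL/6 mice also carry defective Mx genes and a hearing-loss allele of Cdh23, and both groups share this background.

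The response element is the sequence feature that these genes are known to share, so the windows that hold it are shown first. Promoters, as 300 bases from 250 before to 50 after each start, were found in RefSeq for 25 of the 34 genes (GRCm38.p6). The motif searched was GAAANNGAAA or, on the other strand, TTTCNNTTTC, with overlapping matches counted. It stood in the promoters of 13 of the 25 genes (52.0%), against 3.87% of the tested genes with a promoter and 3.99% of all genes with one. A match is a description of letters and not a binding site shown in these mice. The first 6 of the 13 in order of p-value are printed as 30 bases in the direction of the gene, with the repeated units in capitals.
Rsad2, chr12:26456553-26456582, minus strand: ctggtccaacTTTCatTTTCagaaaacaga
Ifit3, chr19:34583397-34583426, plus strand: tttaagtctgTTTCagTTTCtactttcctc
Ifit1, chr19:34640794-34640823, plus strand: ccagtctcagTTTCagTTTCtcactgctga
Isg15, chr4:156200871-156200900, minus strand: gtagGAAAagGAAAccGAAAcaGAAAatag
Oas3, chr5:120777715-120777744, minus strand: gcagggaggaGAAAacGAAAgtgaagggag
Gbp3, chr3:142559992-142560021, plus strand: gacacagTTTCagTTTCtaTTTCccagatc
Isg15 had 3 overlapping matches in its window and Gbp3 had 2, whereas Ifit3 and Ifit1 each had the motif at 2 separate places, 1 of which is printed. The other genes with the motif were Ifih1, Bst2, Stat2, Ddx58, Oas1a, Eif2ak2 and Gbp2. The members with no RefSeq promoter here were Dhx58, Ifi27, Mx1, Mx2, Oas2, Parp14, Rtp4, Usp18 and Zbp1.

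The deleted microRNA is shown beside the 3′-UTR letters that pair with its seed, since such letters are how miR-29a recognises a transcript. The mature strand is encoded at chr6:31062673-31062694 on the minus strand (RefSeq, GRCm38.p6), and capitals mark its seed, bases 2 to 8.
mmu-miR-29a-3p: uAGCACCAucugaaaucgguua
The complement of the seed was searched in the longest 3′-UTR of each gene's protein-coding transcripts in GENCODE M21 and was found in 3 of the 34 genes (8.82%). The share among all tested genes with a 3′-UTR was 15.5%. The 3 genes were Rsad2, Trim25 and Ddx58, and the receptor gene Ifngr2 also held it. Capitals mark the seed match in each window.
Rsad2, bases 1293 to 1299 of a 3′-UTR of 2660 bases: ggggtttttttTGGTGCTtatattaatact
Trim25, bases 635 to 641 of 3572: tatcatctcttTGGTGCTggggtctgaatc
Ddx58, bases 152 to 158 of 961: tggtttcaagcTGGTGCTgtccacacaaag
Ifngr2, bases 254 to 260 of 2618: aaacctgtgtgTGGTGCTttctccagtgtt
The longest 3′-UTR of Ifnar1, of 2030 bases, did not hold these letters. Only the full complement of bases 2 to 8 was searched, so shorter matches and other 3′-UTRs of the gene were not covered. Of the 4 genes shown, Rsad2 was higher in KO than in WT at an unadjusted p-value, and the log2 fold changes of Trim25 (0.37), Ddx58 (-0.09) and Ifngr2 (0.25) did not pass the test.

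The interferon-stimulated genes showed no common direction between WT and KO, with as many genes above as below 0. By limma on log2(FPKM + 0.1), 2 of the 34 passed an unadjusted p-value of 0.05. Rsad2 was higher in KO and Mx2 was lower. Among all 14990 tested genes 767 passed (5.12%), of which 691 were higher in KO (4.61%) and 76 lower (0.507%), so the share of the 34 genes that passed (5.88%) was close to the background. No gene of the table passed after Benjamini-Hochberg adjustment (0 of 14990, smallest adjusted p = 0.558), and the adjusted p-values of the 34 genes lay between 0.947 and 1.0. Of the 34 genes only Mx2 had WT and KO values that did not overlap, a pattern seen in 525 of all tested genes (3.5%). The log2 fold change, KO over WT, was above 0 in 17 of the 34 genes and below 0 in the other 17. Its median was 0.01, against 0.10 over all tested genes, which places the group 0.09 below the shift of the whole table. This position depended on single libraries. The group lay 0.08 above the median of all genes without WT1 and within 0.003 of it without KO4. It lay 0.22 below that median without WT3 and 0.17 below without KO1. Without WT2, WT4, KO2 or KO3 the group also lay below it.

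**Figure D1:**
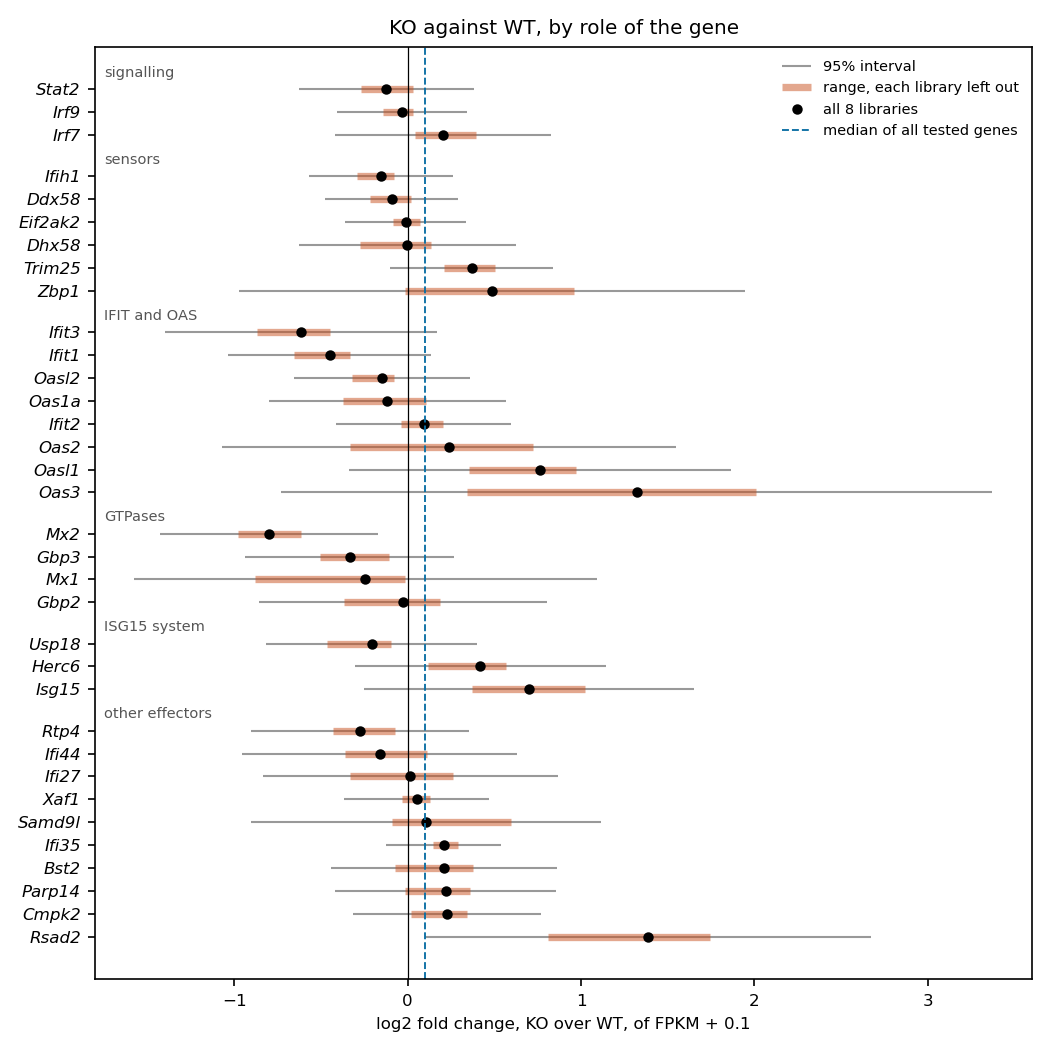
Log2 fold change, KO over WT, of FPKM + 0.1 (x axis) for the 34 genes, grouped by role (y axis). Dots are the values from all 8 libraries, thin lines their 95% confidence intervals, thick lines the range over fits that each lacked 1 library, and the dashed line is the median of all tested genes (0.10). The intervals of Mx2 and Rsad2 lie to one side of 0 and the other 32 span it.

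The size of what could be seen differed between genes. The log2 fold change was under 0.5 in size in 28 of the 34 genes, and in 22 the 95% confidence interval stayed within -1 to 1. For these 22, a change of more than 2-fold lay outside the interval, whereas the intervals of genes such as Oas3 and Zbp1 were wider. In 15 genes all 4 KO values lay within the range of the WT values, a count not made over all tested genes. The SD of the log2 values was larger in WT for 77.7% of all tested genes. Scaling the libraries by median ratios moved the balance of all called genes from 691 higher and 76 lower to 402 higher and 363 lower, and quantile normalization moved it to 378 and 547. Under both, Mx2 was still lower, Rsad2 no longer passed the test (log2 fold changes of 1.29 and 1.24), and the median of the 34 genes was -0.09 and -0.15.

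The transcripts were present in every library, at levels from 0.194 FPKM (Oas3 in WT3) to 104 FPKM (Ifi27 in WT3). The median of the 34 mean levels was 6.47 FPKM, against 8.07 FPKM over all tested genes. The mean was at least 10 FPKM in 9 genes and under 2 FPKM in 3, which were Zbp1, Oasl1 and Ifi44. Ifi27, which encodes a small membrane protein of mitochondria and the nuclear envelope, stood far above the rest at a mean of 76.8 FPKM over all libraries. The next were Samd9l, Bst2, Ifit3 and Rsad2, at means between 13.6 and 17.3 FPKM, and their ranges over libraries overlapped.

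**Figure D2:**
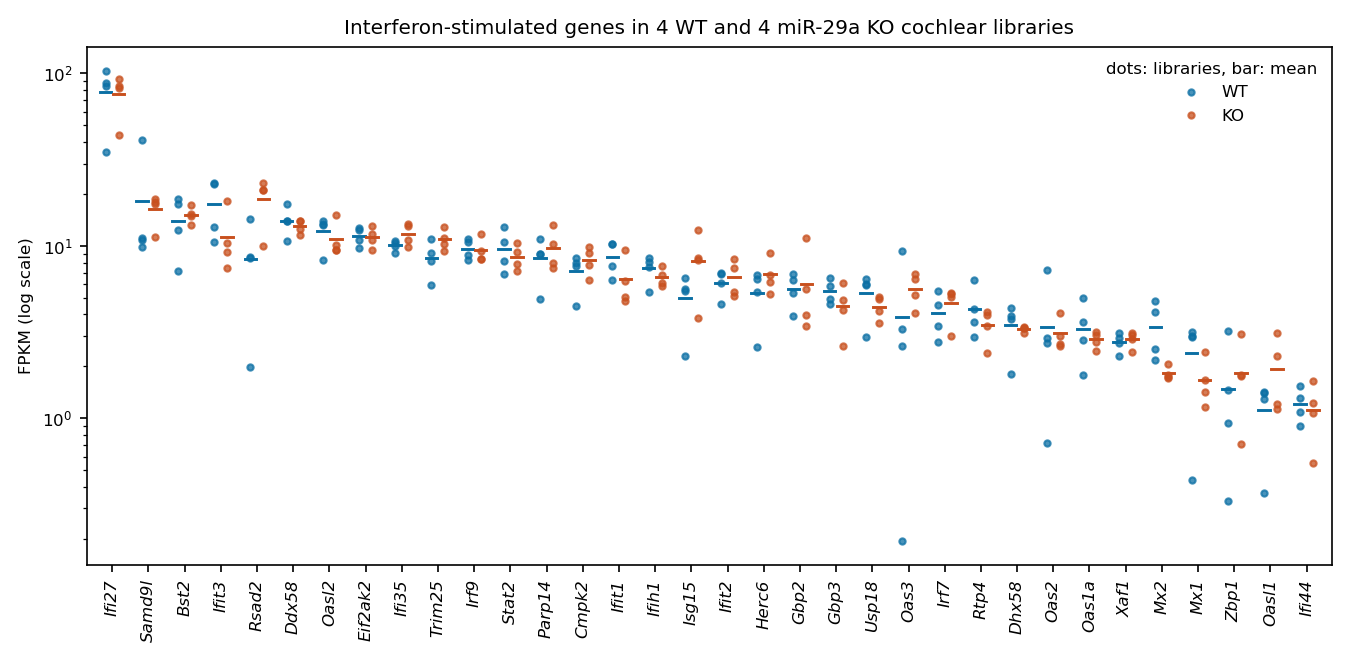
FPKM on a log scale (y axis) of the 34 genes in order of mean level (x axis), with a dot for each of the 4 WT and 4 KO libraries and a bar for each group's mean. Ifi27 stands alone at the top, the 2 colours overlap in every gene except Mx2, and single low WT dots for Oas3, Oas2, Mx1, Zbp1 and Oasl1 belong to WT3.

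Mx2 was the gene with the smallest p-value. It encodes a dynamin-like GTPase of the antiviral Mx family and lies at chr16:97535308-97560900 (GRCm38). Its FPKM were 2.51, 4.76, 2.19 and 4.13 in WT1 to WT4 and 2.07, 1.73, 1.72 and 1.77 in KO1 to KO4. The KO libraries were close to each other, and the gap to WT was narrow, since the lowest WT library was only just above the highest KO library. The mean fell from 3.4 ± 1.25 to 1.82 ± 0.169 FPKM (SD, n = 4 each), a log2 fold change of -0.80 with a 95% confidence interval from -1.43 to -0.17 (limma, adjusted p = 0.947). Without WT2 it was -0.61 and without WT4 -0.68, and in neither case did it pass the unadjusted threshold, so the call rested on each of these 2 libraries. The neighbouring gene Mx1, the founding member of the family, had 2.97, 3.16, 0.436 and 2.99 FPKM in WT1 to WT4 and 1.41, 2.41, 1.16 and 1.66 FPKM in KO1 to KO4. Here WT3 was the lowest of all libraries and the other 3 WT libraries were above every KO library. The log2 fold change of Mx1 was -0.24 (SE 0.59) and did not pass the test, and without WT3 it was -0.88 and passed the unadjusted threshold. Of all 50-base words of the Mx2 transcripts, 4.38% also occurred in Mx1, so few reads could have been assigned to either gene.

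Rsad2 was the gene with the other call. It encodes viperin, a radical SAM enzyme that makes a chain-terminating nucleotide against viral polymerases, and lies at chr12:26442746-26456452. Its FPKM were 14.4, 8.58, 1.97 and 8.54 in WT1 to WT4 and 23.1, 21.0, 21.1 and 9.94 in KO1 to KO4. KO1 to KO3 were above every WT library, KO4 was below WT1, and WT3 was far below the rest. The mean rose from 8.36 ± 5.06 to 18.8 ± 5.98 FPKM (SD, n = 4 each), a log2 fold change of 1.39 with a 95% confidence interval from 0.10 to 2.67 (limma, adjusted p = 0.947). The call was lost without KO1 (log2 fold change 1.26), without KO2 (1.31) and without KO3 (1.31). Without WT3 the log2 fold change was 0.81 and still passed the unadjusted threshold. Cmpk2, a mitochondrial nucleotide kinase whose gene is next to Rsad2, did not pass the test (log2 fold change 0.23, SE 0.24). The ratio of Rsad2 to Cmpk2 FPKM ranged from 0.439 to 1.88 in WT and from 1.57 to 2.74 in KO, with WT1 above KO4.

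**Figure D3:**
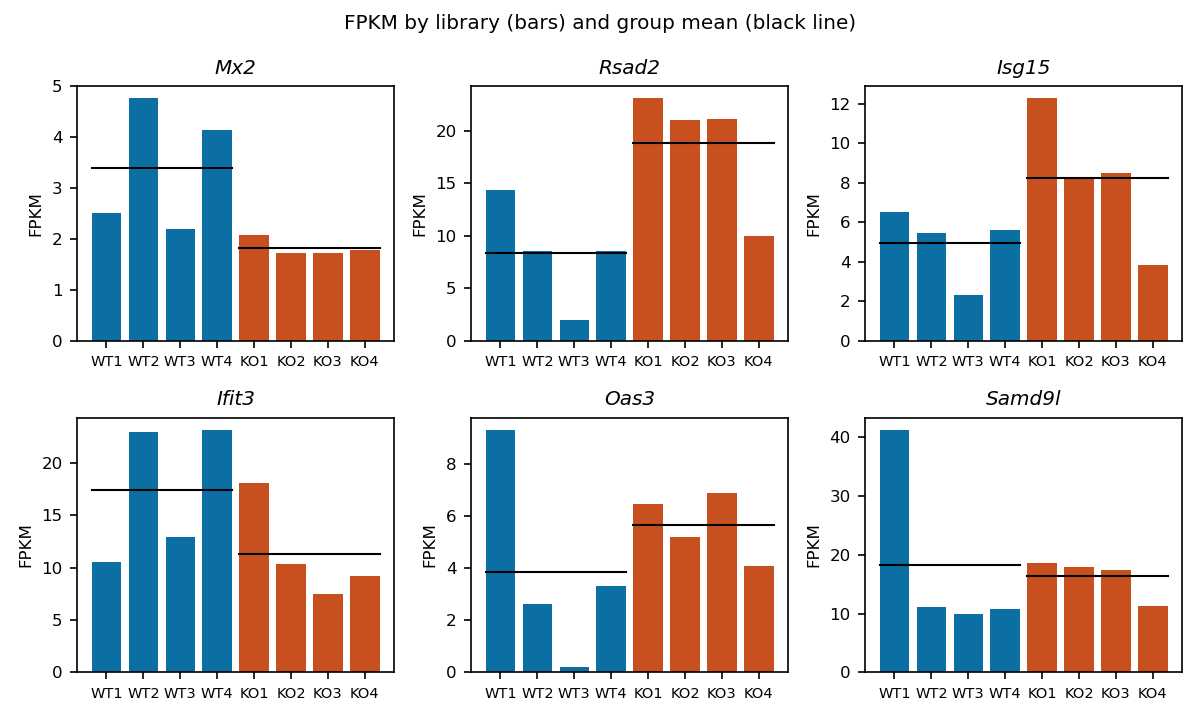
FPKM (y axes, from 0) of 6 genes in each of the 8 libraries (x axes), with WT in blue, KO in orange and a black line at each group's mean. For Mx2 every WT bar is above every KO bar, for Rsad2 KO1 to KO3 are above all WT bars, and for Samd9l the WT mean is above the KO mean although WT2 to WT4 are below all KO bars.

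The signalling members, which form or amplify the response, differed little. Stat2, the transactivating subunit of the activated complex, had 8.20, 12.9, 6.87 and 10.5 FPKM in WT1 to WT4 and 10.4, 7.81, 7.15 and 9.24 FPKM in KO1 to KO4. Irf9, the DNA-binding subunit of that complex, had 11, 8.23, 10.5 and 8.89 FPKM in WT and 11.7, 8.41, 9.30 and 8.38 FPKM in KO. The groups overlapped in both genes, with log2 fold changes of -0.12 (SE 0.22) for Stat2 and -0.03 (SE 0.16) for Irf9. Irf7, the factor that amplifies type I interferon production, had 3.43, 4.54, 2.78 and 5.50 FPKM in WT and 5.06, 5.30, 5.26 and 3.01 FPKM in KO. Its values overlapped, KO4 was far below the other KO libraries, and the log2 fold change was 0.20 (SE 0.27). None of the 3 passed the test.

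The 6 sensors of foreign nucleic acid gave no call either. The RNA helicases Ddx58 (RIG-I), Ifih1 (MDA5) and Dhx58 (LGP2) had mean levels over all libraries of 13.5, 6.98 and 3.38 FPKM and log2 fold changes of -0.09, -0.15 and -0.00. For Dhx58 the 4 KO libraries lay between 3.14 and 3.36 FPKM, while WT ran from 1.81 to 4.38 FPKM. Eif2ak2, the kinase PKR that stops translation on double-stranded RNA, had means of 11.4 ± 1.39 FPKM in WT and 11.3 ± 1.54 FPKM in KO (SD, n = 4 each). Its log2 fold change was -0.01 with an interval from -0.36 to 0.34, among the narrowest of the 34. Trim25, a ubiquitin ligase that acts with RIG-I, had 5.93 to 11 FPKM in WT and 9.29 to 12.9 FPKM in KO (log2 fold change 0.37, SE 0.21). Zbp1, a sensor of Z-form nucleic acid that can start cell death, varied 9.65-fold in WT, from 0.333 to 3.21 FPKM, and its log2 fold change of 0.49 had an SE of 0.64.

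The IFIT proteins, which bind viral RNA, and the OAS enzymes, whose short oligoadenylates activate RNase L, did not move as a block. Of these 8 genes 4 had a log2 fold change above 0 and none passed the test. Ifit3 had 10.5, 23.0, 12.9 and 23.2 FPKM in WT1 to WT4 and 18.1, 10.4, 7.48 and 9.22 FPKM in KO1 to KO4. Ifit1 had 7.67, 10.2, 6.36 and 10.2 FPKM in WT and 9.44, 6.24, 4.81 and 5.05 FPKM in KO. In both genes WT2 and WT4 were the highest libraries and KO2 to KO4 were below every WT library, while KO1 lay among the WT values. The log2 fold changes were -0.62 (SE 0.35) for Ifit3 and -0.45 (SE 0.26) for Ifit1, and without KO1 both passed the unadjusted threshold. Ifit2, in the same cluster on chromosome 19, had 4.57 to 6.96 FPKM in WT and 5.09 to 8.43 FPKM in KO, with a log2 fold change of 0.09 (SE 0.22). Ifit3 is measured with some doubt, because 51.2% of the 50-base words of its transcripts also occur in Ifit3b, whose log2 fold change was -0.64.

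Among the OAS genes of chromosome 5 the fold changes depended on WT3 and WT1. Oas3 had 9.31 FPKM in WT1 and 0.194 FPKM in WT3, a 48.0-fold gap within WT, and between 4.08 and 6.87 FPKM in KO. Its log2 fold change of 1.32 was of the same size as that of Rsad2, but with an SE of 0.90 it did not pass the test. Without WT1 it was called, and over the libraries left out in turn it ran from 0.34 to 2.01. Oas2 and Oas1a had the same extremes, WT1 the highest and WT3 the lowest of all 8 libraries, with log2 fold changes of 0.24 and -0.12. The value of Oas1a is uncertain, because 57.6% of its words also occur in Oas1g. Oasl1, a relative that in mice restrains Irf7 translation, had 0.367 to 1.41 FPKM in WT and 1.13 to 3.11 FPKM in KO (log2 fold change 0.77, SE 0.48), and Oasl2 had a log2 fold change of -0.15.

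The guanylate-binding proteins attack the vacuoles of intracellular pathogens and respond mostly to interferon gamma. Gbp2 had 3.93 to 6.84 FPKM in WT and 3.41 to 11 FPKM in KO, and Gbp3 had 4.62 to 6.50 and 2.63 to 6.13 FPKM. Their log2 fold changes of -0.03 and -0.33 did not pass the test. With Mx1 and Mx2, all 4 GTPase genes of the list had a log2 fold change below 0, of which only that of Mx2 was called.

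Isg15 encodes a ubiquitin-like protein that is conjugated to other proteins during the response. It had 6.50, 5.47, 2.30 and 5.61 FPKM in WT1 to WT4 and 12.3, 8.25, 8.49 and 3.83 FPKM in KO1 to KO4. As for Rsad2, KO1 to KO3 were above every WT library, but KO4 was below 3 of the 4 WT libraries. The log2 fold change was 0.70 (SE 0.42), and it passed the unadjusted threshold without KO4. Herc6, the main ISG15 ligase of the mouse, had 2.60 to 6.78 FPKM in WT and 5.29 to 9.06 FPKM in KO. Usp18, which removes ISG15 and also blocks the receptor, had 2.95 to 6.42 FPKM in WT and 3.59 to 5.05 FPKM in KO. Their log2 fold changes of 0.42 (SE 0.32) and -0.21 (SE 0.27) did not pass the test, and without WT3 that of Usp18 was -0.46 and passed the unadjusted threshold.

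The remaining effectors gave no further call. Ifi27 had 35.1, 87.9, 104 and 84.1 FPKM in WT1 to WT4 and 43.9, 84.1, 92.6 and 82.4 FPKM in KO1 to KO4. Its low libraries were WT1 and KO1, which were high for many of the other genes, and the log2 fold change was 0.02 (SE 0.37). Samd9l, a growth-restraining inhibitor of translation in blood cells, had 41.2, 11.1, 9.84 and 10.8 FPKM in WT and 18.6, 17.9, 17.4 and 11.2 FPKM in KO. WT1 alone was above the KO libraries and the other 3 WT libraries were below all of them, so the log2 fold change was 0.11 with all libraries and 0.59 without WT1, where it passed the unadjusted threshold. Bst2, the tetherin that holds budding virions at the cell surface, had 7.16, 18.6, 12.4 and 17.5 FPKM in WT and 13.2, 17.2, 15.2 and 15 FPKM in KO. The KO values lay within the WT range, and the log2 fold change was 0.21 (SE 0.29). The log2 fold changes of Parp14, an ADP-ribosyltransferase (0.22), Ifi35 (0.21), Xaf1, a promoter of apoptosis (0.05), Ifi44 (-0.16) and Rtp4, a chaperone of membrane receptors (-0.27), were small. Ifi35 had 9.10 to 10.7 FPKM in WT and 9.78 to 13.3 FPKM in KO.

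Single libraries stood apart within the genotypes. WT3 was the lowest of the 8 libraries for 21 of the 34 genes (61.8%), against 19.7% of all tested genes. KO1 was the highest for 11 of them (32.4%, against 5.24% of all tested genes) and WT1 for 10 (29.4%, against 12.5%). The mean log2 level of the 34 genes was 2.8, 2.7, 1.88 and 2.74 in WT1 to WT4 and 2.88, 2.72, 2.53 and 2.38 in KO1 to KO4. WT3 thus stood apart at the bottom, KO4 was next, and the other WT libraries overlapped with KO1 to KO3. Over all tested genes this mean was 2.51, 2.92, 2.74 and 2.96 in WT1 to WT4. It was 2.82, 3.01, 3.02 and 2.94 in KO1 to KO4. The mean of the 34 genes was above that of all tested genes in WT1 and KO1, and below it elsewhere. WT1 was the lowest library for 52.1% of all tested genes, against 11.8% of the 34. Between WT1 and WT3, 27 of the 34 genes were higher in WT1, with a median ratio of 1.69. WT2 and WT4 were alike, with a median ratio of 0.997 and single ratios from 0.646 to 1.25. The SD of the log2 values was larger in WT for 25 of the 34 genes, with medians of 0.474 for WT and 0.328 for KO. Over all tested genes these medians were 0.416 and 0.242, with the SD larger in WT for 77.7% of genes.

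**Figure D4:**
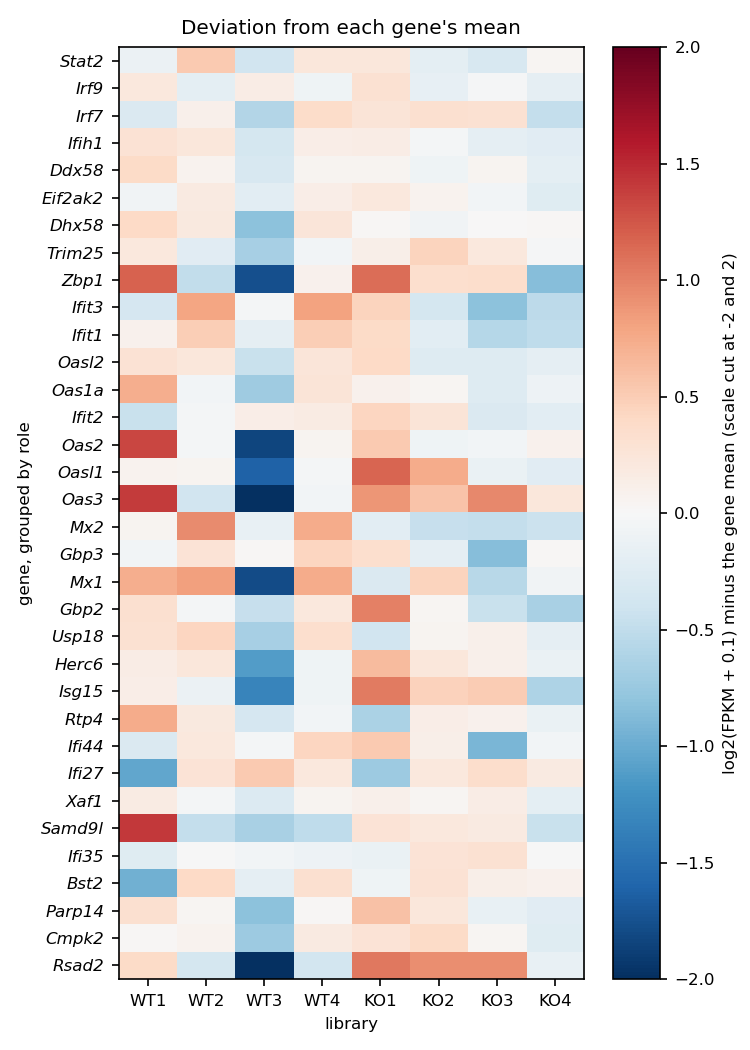
Deviation of log2(FPKM + 0.1) from each gene's mean over the 8 libraries (colour, drawn from -2 to 2) for the 34 genes (y axis, by role) in WT1 to WT4 and KO1 to KO4 (x axis). The WT3 column is blue for most genes, whereas Ifi27 is blue in WT1 and KO1, and the KO columns share no colour across the genes.

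Markers of cell types also differed between libraries, in patterns that varied with the cell type. The cochlear label held, since all 7 hair cell markers, 7 markers of the stria vascularis and spiral ligament and 7 of spiral ganglion neurons and glia were above 0 in every library. Each of these sums was highest in WT3, but they did not share the lowest library. For ganglion neurons and glia the sum was lowest in WT1 (583 FPKM) and highest in WT3 (1861 FPKM). The hair cell sum was lowest in KO1 (25.9 FPKM), and that of the stria and ligament in WT4 (1515 FPKM). The summed FPKM of 8 neutrophil lineage markers was 9405, 655, 51.4 and 893 in WT1 to WT4 and 3316, 2344, 5014 and 1641 in KO1 to KO4. WT1 was the highest and WT3 the lowest, the same libraries that were at the extremes of Samd9l, Oas1a, Oas2 and Oas3. All 8 had a log2 fold change above 0 (median 2.33) and none passed the test. The sum of 8 macrophage markers ranged from 59.1 to 130 FPKM in WT, lowest in WT3, and from 66.2 to 130 FPKM in KO, lowest in KO4, with none called. Of 7 B lineage markers 3 were higher in KO at an unadjusted p-value, with sums of 1.07 to 46.5 FPKM in WT and 28.9 to 84.4 FPKM in KO. The share of all tested genes that were higher in KO at this threshold was 4.61%. Of 3 tested T and NK cell markers 1 was higher in KO. The sum of 6 endothelial markers was 51.0 to 70.3 FPKM in WT and 51.1 to 64.7 FPKM in KO, with none called. The erythroid sum was also lowest in WT3 (449 FPKM), and 2 of the 6 erythroid markers were higher in KO at an unadjusted p-value. The sum of 7 bone cell markers, 2 of them higher in KO at an unadjusted p-value, was 109 FPKM in WT3 and at least 448 FPKM in every other library. Skeletal muscle markers summed to 307 FPKM in KO3, 34.8 FPKM in KO4 and at most 8.99 FPKM elsewhere, with 1 of 6 called higher in KO. The 5 markers of plasmacytoid dendritic cells, the main producers of type I interferon, summed to 34.9 to 51.2 FPKM in WT and 40.3 to 46.0 FPKM in KO, nearly all of it Tcf4, which other cells express, and Klk1 was at 0 in WT3. The part of these cells in the values of Rsad2, Oas3, Samd9l and the other genes was not tested, and in bulk tissue fewer cells of a type and less RNA per cell cannot be told apart. Leaving out WT1 and WT3 together was an alternative chosen after the data were seen. It gave 8 calls among the 34 genes, 3 higher (Rsad2, Oas3 and Samd9l) and 5 lower (Mx1, Mx2, Ifit3, Ifit1 and Usp18). Calls also rose over the whole table, to 2430 of 15055 tested genes from 767 of 14990 with all libraries. With these 2 libraries gone the WT group was WT2 and WT4 alone, which resembled each other closely. Over all tested genes their log2 levels correlated at 0.962 with each other, and at 0.960 and 0.963 with KO4. WT1 correlated at 0.893 to 0.920 with KO1 to KO3, at 0.852 with KO4 and at 0.725 to 0.821 with the other WT libraries. The libraries thus did not group cleanly by genotype.

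**Figure D5:**
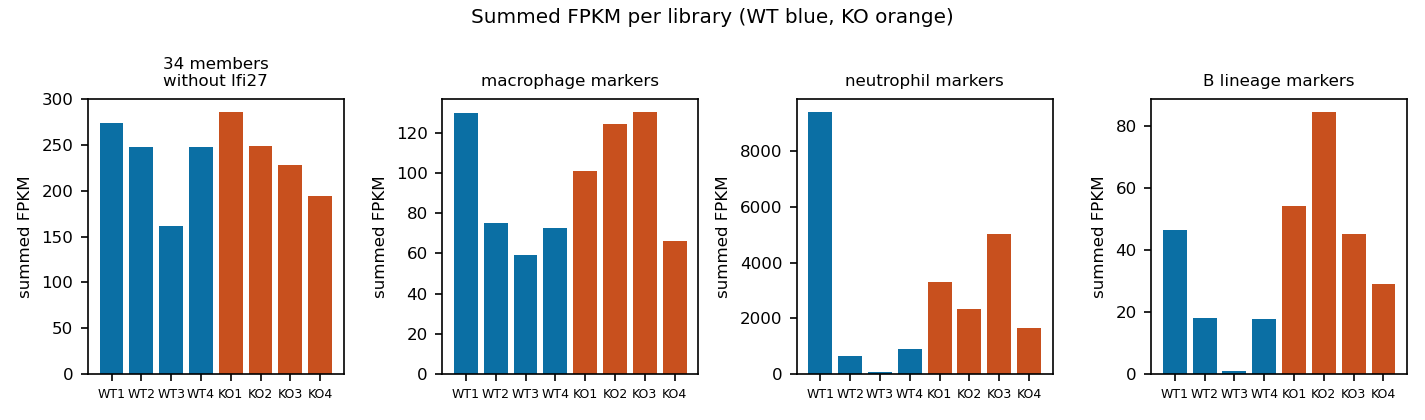
Summed FPKM (y axes, from 0) in each of the 8 libraries (x axes) of the 34 genes without Ifi27 and of markers of macrophages, neutrophils and B cells, with WT in blue and KO in orange. WT3 has the lowest bar in all 4 panels, and WT1 has the highest neutrophil bar, at 9405.

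The rest of the pathway was read from the same fit. Of 121 listed genes outside the 34, 98 were tested, 3 were higher in KO and 1 lower at an unadjusted p-value (4.08%), none passed adjustment by limma with the Benjamini-Hochberg method, and the median log2 fold change was 0.19. The interferon genes themselves were almost silent: 16 of the 21 in the table were listed at 0 in all 8 libraries, 4 reached at most 0.0767 FPKM, and only Ifnk, an interferon of epithelia, was tested (log2 fold change 0.50, SE 0.42). The receptor subunits were expressed in all libraries and none of the 6 genes passed the test.

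Ifnar1, the subunit that the thymus work linked to miR-29a, had 21.6, 15.9, 18.6 and 18.5 FPKM in WT1 to WT4 and 16.9, 19.5, 18.4 and 22.8 FPKM in KO1 to KO4. The groups overlapped, and the log2 fold change was 0.05 (SE 0.15). The other subunits had log2 fold changes of 0.06 (Ifnar2), 0.17 (Ifngr1), 0.25 (Ifngr2), 0.53 (Ifnlr1) and 0.04 (Il10rb). All 10 kinase, STAT and IRF genes listed outside the 34 had log2 fold changes above 0, as did 9962 of all 14990 tested genes, and the count was 9 under quantile normalization and 8 without WT3. The largest was 0.73 for Irf8, a factor of myeloid and B cells, and none passed the test. The smallest p-value among them belonged to Irf1, a factor of the interferon gamma response (log2 fold change 0.46, SE 0.22). Of the 10 genes only Irf3 had WT and KO values that did not overlap, a pattern seen in 3.5% of all tested genes. Its highest WT value was 22.2 FPKM and its lowest KO value 22.3 FPKM.

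None of the 10 negative regulators passed, and those with the smallest p-values were the phosphatase Ptpn1 (log2 fold change 0.36), the JAK inhibitor Socs3 (0.40) and Nlrx1, a mitochondrial damper of RNA sensing (0.37). Of the 17 tested genes that act upstream in nucleic acid sensing only Traf3, an adaptor that links sensors to interferon production, passed. Its FPKM were 3.74, 5.74, 5.39 and 5.39 in WT1 to WT4 and 6.86, 7.90, 7.24 and 7.14 in KO1 to KO4, so every KO library was above every WT library (log2 fold change 0.53, SE 0.17). Of 54 tested interferon-stimulated genes outside the list, 3 passed. Psmb8, a subunit of the immunoproteasome (log2 fold change 0.67), and Tapbp, which loads peptides on MHC class I (0.69), were higher in KO, and Lgals3bp, a secreted glycoprotein (-0.45), was lower. The WT and KO values of these 3 genes overlapped, and each of the 3 calls was lost when any of 5 single libraries was left out. Without WT1 the log2 fold change of Tapbp was 0.38, and without WT3 that of Psmb8 was 0.42. Of the 54 genes, 1 that did not pass had WT and KO values that did not overlap, a pattern seen in 3.5% of all tested genes. The call of Traf3 held without each library in turn, with log2 fold changes of 0.40 to 0.60.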

How the data were processed

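Total RNA of the cochlea was depleted of ribosomal RNA and made into strand-specific libraries, and the authors mapped the paired-end reads with Hisat2 (v2.0.4). The authors deposited FPKM per gene for each library, and the tool and annotation behind the values are not given in the sources used here. The submitters' processing notes name mm9, but 19771 of the 21760 gene identifiers found in GENCODE M21 had its GRCm38 coordinates, as did 33 of the 34 members. The DESeq2 test that the authors ran on counts was not repeated. Symbols of 27 genes had been turned into dates and were left as they stood, and 0 sample columns were unused. FPKM hold no counts, so the depth is unknown. Total FPKM per library ranged from 249221 to 288695, and the relative depth estimated from low values was 0.952 to 1.17 times the median. The transcript Gm8797 held 7.09% of the WT1 total.

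WT and KO were compared by limma 3.58.1 in R 4.3.3 on log2(FPKM + 0.1) for the effect of genotype, with a mean-variance trend, in genes with a mean of at least 0.5 FPKM. Calls were made at an unadjusted two-sided p-value under 0.05, as in the methods of the study, with Benjamini-Hochberg adjusted values beside them. Fold changes on this scale understate those of low genes. The script was tested on simulated data. Library values were printed for members with a call, members whose groups did not overlap, the 5 with the highest level, and Irf7, Irf9, Stat2, Ifit1, Isg15, Mx1 and Mx2. Of the pathway lists, receptors and signalling genes were named, and elsewhere the genes with a call or the 3 smallest p-values. Some values of single libraries outside this rule, such as those of Oas3 and Traf3, were added after they were seen. The members and lists were chosen with earlier results of these data known. Alternatives changed the pseudocount, the filter, the scaling, the variance model, the replicate block and the libraries.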

Additional observations from a re-analysis of the deposited data

Results flagged for a closer look

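In a group of 4 libraries, and on the scale of log2(FPKM + 0.1), a value was taken as far from the others when its gap to the nearest of them was more than 0.829 of the whole range on that scale (Dixon's critical value). Of the 68 groups formed by 34 genes and 2 genotypes, 12 held such a value, in 10 genes, and chance flags about 1 in 20 groups. The groups share libraries and are not independent. The share of flagged groups over all tested genes was not counted, so the 12 flags do not mark these genes as unusual.

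WT3 was far below the other WT libraries for 6 genes. Its level was 4.50 FPKM for Cmpk2, against 7.64 to 8.50 in the others, 2.30 FPKM for Isg15, 0.436 FPKM for Mx1, 0.367 FPKM for Oasl1, 8.30 FPKM for Oasl2 and 2.95 FPKM for Usp18. KO4 was far below the other KO libraries for Irf7 (3.01 FPKM), Rsad2 (9.94 FPKM) and Samd9l (11.2 FPKM). KO1 was far below the other KO libraries for Ifi27, at 43.9 FPKM against 82.4 to 92.6, and far above them for Oasl2, at 15 FPKM. WT1 was far above the other WT libraries for Samd9l, at 41.2 FPKM.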

How the results depend on the processing

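Of the 34 genes, 2 were called with all libraries. A pseudocount of 1, no filter, a mean of at least 1 FPKM, variances without a trend and replicates 1 to 3 only also gave 2 calls, with Isg15 in place of Mx2 in the last (Mx2 log2 fold change -0.67). The study names 3 replicates per group, and which it used is not known here. Median-ratio scaling and quantile normalization each gave 1 call (Mx2). Leaving out 1 library gave 1 to 6 calls, with 6 without WT1 (Trim25, Rsad2, Mx2, Ifit3, Oas3 and Samd9l), 4 without WT3 (Rsad2, Mx1, Mx2 and Usp18), and 1 without WT2, WT4, KO2 or KO3. Without both WT1 and WT3, chosen after the data were seen, 8 were called. Over all tested genes 767 of 14990 were called, and 347 of 14981 (without KO3) to 2922 of 15019 (without WT1) with 1 library left out. There were 377 of 14976 without KO2, 596 of 15017 without WT3 and 2430 of 15055 without both WT1 and WT3. The rise without WT1 was thus seen across the whole table, and its cause was not tested. At most 3 genes of the whole table and none of the 34 passed limma's Benjamini-Hochberg threshold in any setting. The fold changes of Rsad2 and Mx2 kept their signs. For the 34 genes the median fold change on the log2 scale lay between -0.15 and 0.12 in all settings.

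The replicate numbers were not taken as a pairing, because they are not said to mark a shared litter or day. Deviations of same-numbered libraries correlated at 0.42, -0.24, -0.17 and 0.21, which cannot settle whether they shared one. With the replicate block 838 genes were called, 738 higher and 100 lower, and the same 2 of the 34 genes, Rsad2 and Mx2, were called. WT1 and WT4 correlated best with the KO library of their own number, and WT2 and WT3 did not. In the other direction only KO1 did so, whereas KO2 and KO3 correlated best with WT1 and KO4 with WT2.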
